A study of Mus musculus with 8 samples.

Results

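The kallikreins and the Prss proteases are secreted or membrane-bound enzymes of the trypsin-like serine protease family. The genes described here were the protein-coding genes of the mouse whose symbol begins with Klk or Prss followed by characters that include a digit. The rule found 66 of 21887 protein-coding genes, made up of 26 kallikrein genes in 1 cluster on chromosome 7, 39 Prss genes spread over the genome, and Klkb1, the gene of plasma kallikrein. The family was chosen by its symbols after its calls for the 3 antibodies and the coverage of its cluster had been seen, so those values are given below as descriptions and carry no test.

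The study asked where Ezh2, Runx1 and the histone mark H3K27me3 lie in EML_C1 cells, a mouse haematopoietic progenitor line labelled C57BL/6 that was grown in stem cell factor and used at passage 4-5. Chromatin was immunoprecipitated and sequenced with antibodies against Ezh2, H3K27me3 and Runx1, with 2 replicates of each antibody. The other 2 of the 8 libraries were inputs, 1 for Ezh2 and Runx1 and 1 for H3K27me3, and they were not analysed here. All cells were of the same line with no genotype or treatment contrast, formaldehyde alone fixed the chromatin for H3K27me3, and DSG with formaldehyde fixed that for the other antibodies. The labels do not say that replicates came from separate cultures, so a spread between replicates may be technical.

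Ezh2 is the catalytic subunit of Polycomb repressive complex 2, which places H3K27me3 on chromatin that is mostly not transcribed. Runx1 is a DNA-binding factor needed to form definitive blood cells. Trypsin-like proteases cut proteins through a histidine, aspartate and serine triad and are made as inactive precursors. Most kallikreins are known from skin, salivary gland, kidney, brain and reproductive tract, and many Prss enzymes are known from testis, pancreas, uterus or the granules of blood cells. Peak lists say where an antibody pulled down DNA and do not measure whether a gene was transcribed.

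A gene counted as called when both replicates of an antibody had a peak in the same window of 1 kb either side of one end of the gene. Of the 66 proteases, 49 were called for H3K27me3 (74.2%), where 30.6% of all protein-coding genes were called. Ezh2 was called at 27 of the 66 (40.9%), with 18.4% called among all protein-coding genes. Runx1 was called at 7 of the 66 (10.6%), with 45.3% called among all protein-coding genes. Ezh2 and H3K27me3 were both called at 26 of the proteases (39.4%) and at 16.3% of all genes. A further 23 proteases had H3K27me3 without an Ezh2 call (34.8%, with 14.2% among all genes). Prss36 had Ezh2 without H3K27me3, as had 459 of all 21887 genes. Prss30 and Prss44 were called for all 3 antibodies (3.03%, with 3.76% among all genes). No antibody was called at 11 genes (16.7%, with 28.7% among all genes), which were Klkb1, Prss2, Prss8, Prss27, Prss33, Prss37, Prss38, Prss39, Prss41, Prss53 and Prss58.

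**Figure D1:**
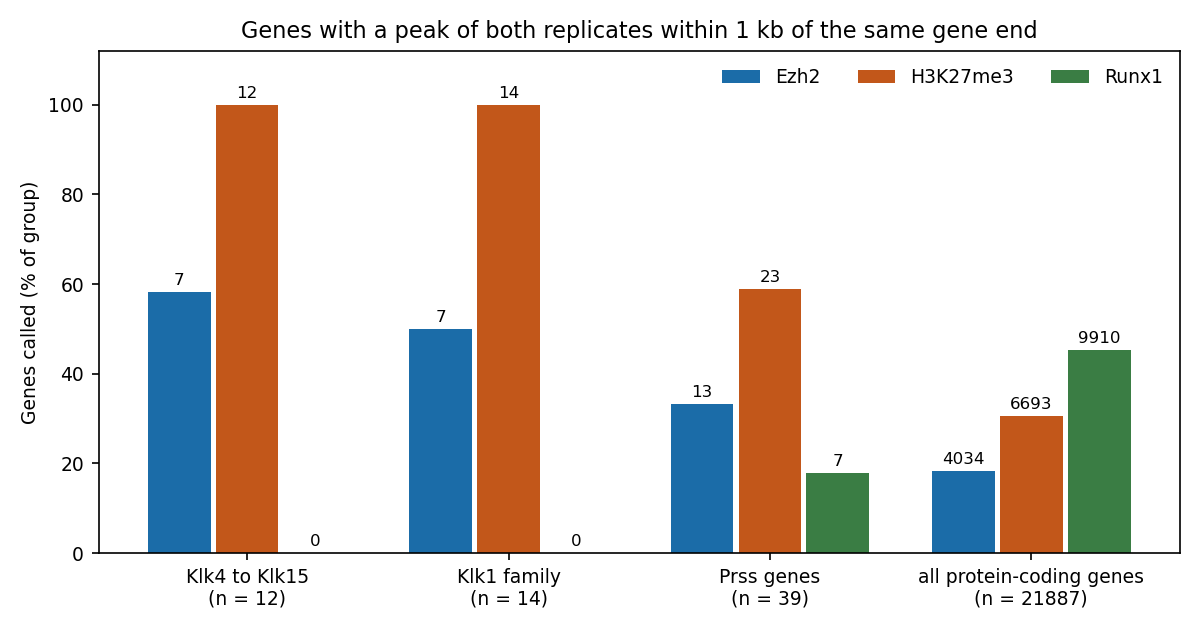
Share of genes called for each antibody (vertical axis, % of the group) among the Klk4 to Klk15 genes, the Klk1 family, the Prss genes and all protein-coding genes, with the number of genes called printed over each bar. H3K27me3 was called at all 26 cluster kallikreins and Runx1 at none of them, and Runx1 at 7 of 39 Prss genes.

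The lists hold many weak peaks, and the strength of a call bears on each count. Each deposited peak has a q-value and a fold enrichment from the authors' peak caller, and a fold given here for a gene is that value for the strongest peak in the window, and a fold given for a Runx1 region is that of the strongest peak in it. With peaks of q at most 0.01 in both replicates, the H3K27me3 call remained at Prss35 alone (1.52%, with 3.02% of all genes). The second H3K27me3 replicate limited this count, since 16 proteases had such a peak in replicate 1 and 1 had it in replicate 2. Of all 21887 genes, 2734 had one in replicate 1 and 707 in replicate 2. At the same q, 8 proteases were called for Ezh2 (12.1%, with 8.08% of all genes), namely Prss56, Prss55, Prss51, Prss28, Prss29, Prss50, Klk1b1 and Klk1b5. Runx1 was then called at 6 proteases (9.09%, with 42.3% of all genes), and Prss44 dropped out. With q of at most 1e-05, 1 protease was called for Ezh2 (Prss56, with 4.58% of all genes), 0 for H3K27me3 (0.425% of all genes) and 3 for Runx1 (Prss57, Prss16 and Prss42, with 39.0% of all genes). With the 10000 strongest peaks of each list, 3 were called for Ezh2 (Prss56, Prss29 and Prss50, with 5.88% of all genes), 2 for H3K27me3 (Klk1 and Prss35, with 5.62%) and 1 for Runx1 (Prss57, with 22.4%). The H3K27me3 lists are in a broad-peak format and the Ezh2 and Runx1 lists in a narrow-peak format, and the labels give H3K27me3 an input of its own, so folds and q-values were not compared between them.

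**Figure D2:**
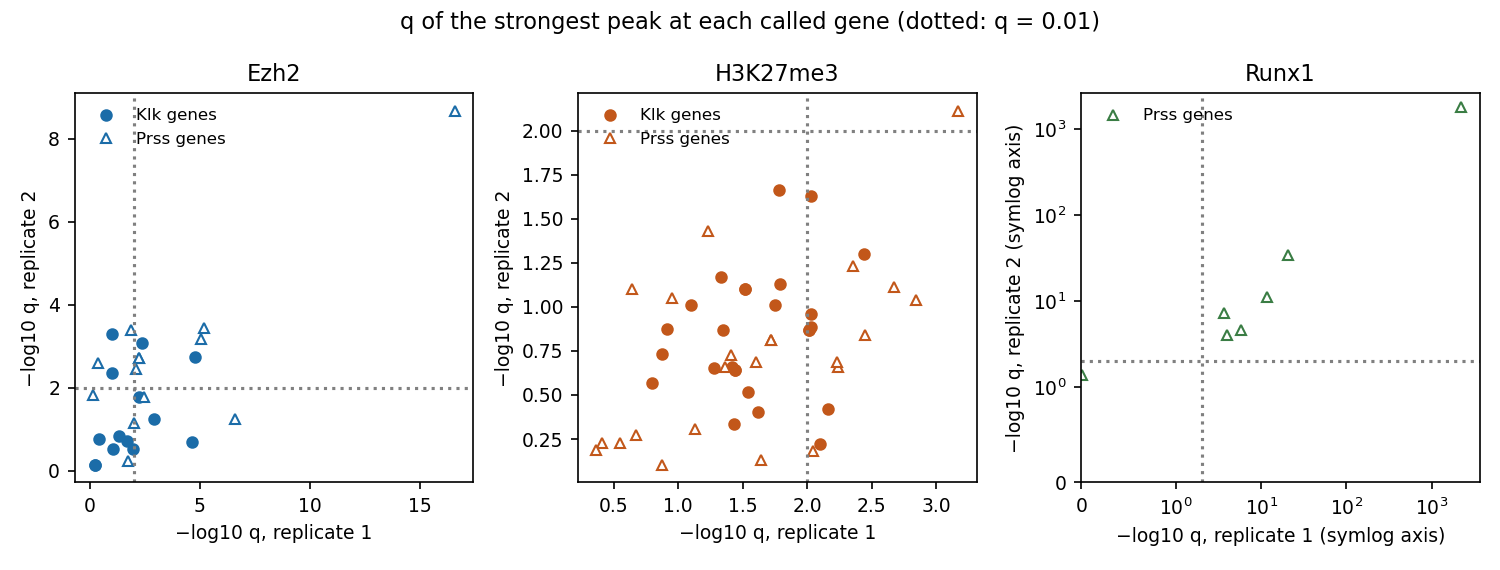
The −log10 q of the strongest peak at each called gene in replicate 1 (horizontal axis) and replicate 2 (vertical axis), with filled circles for Klk genes, open triangles for Prss genes and dotted lines at q = 0.01. Prss35 is the H3K27me3 point above both lines, Prss56 lies far above the other Ezh2 points, and Runx1 is drawn on symmetric log axes.

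The kallikrein cluster ran over chr7:43680880-44229622 in mm10, a stretch of 548743 bp that held the 26 kallikreins and no other protein-coding gene. Peaks of H3K27me3 covered 58.6% of it in replicate 1 and 38.5% in replicate 2, and 33.6% was covered in both lists. On the whole of chromosome 7 the lists covered 18.3% and 11.1%, and 9.06% was covered in both. A stretch of equal length on the lower side of the cluster was covered for 8.33% and 3.67%, and one on the higher side for 36.2% and 23.8%. Coverage by the mark was thus uneven around the cluster, low below it and intermediate above it. These shares rest mostly on weak peaks. Of the 111 H3K27me3 peaks of replicate 1 in the cluster 8 had q of at most 0.01, and of the 151 of replicate 2, 0 had. In the whole lists 6.13% and 1.34% of the peaks had such a q.

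Ezh2 peaks covered 8.02% and 6.11% of the cluster, with 3.29% and 2.83% on chromosome 7. The lower flank had 0.700% and 0.471% and the higher flank 9.84% and 6.26%, so the cluster lay below the higher flank in both replicates. Only 1.86% of the cluster was covered in both Ezh2 lists, since the peaks were narrow and often did not coincide. The same share was 1.16% on chromosome 7, 0.1% on the lower flank and 3.87% on the higher flank. There were 136 and 111 Ezh2 peaks in the cluster, and 43 merged regions drew on both lists.

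Runx1 peaks covered 0.0962% and 0.0671% of the cluster, with 1.10% and 1.13% on chromosome 7. The flanks had 2.79% and 2.81% on the lower side and 3.89% and 3.88% on the higher side. The cluster held 3 Runx1 peaks in replicate 1 and 2 in replicate 2, none of them shared. From the cluster kallikreins, the nearest Runx1 region found in both replicates lay a median of 134104.5 bp away (10248 to 284926 bp), where the median over all protein-coding genes was 0 bp. Within 300 kb below the cluster 7 of 17 genes were called for Runx1, and within 300 kb above it 9 of 17. Among all protein-coding genes the share was 45.3%.

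**Figure D3:**
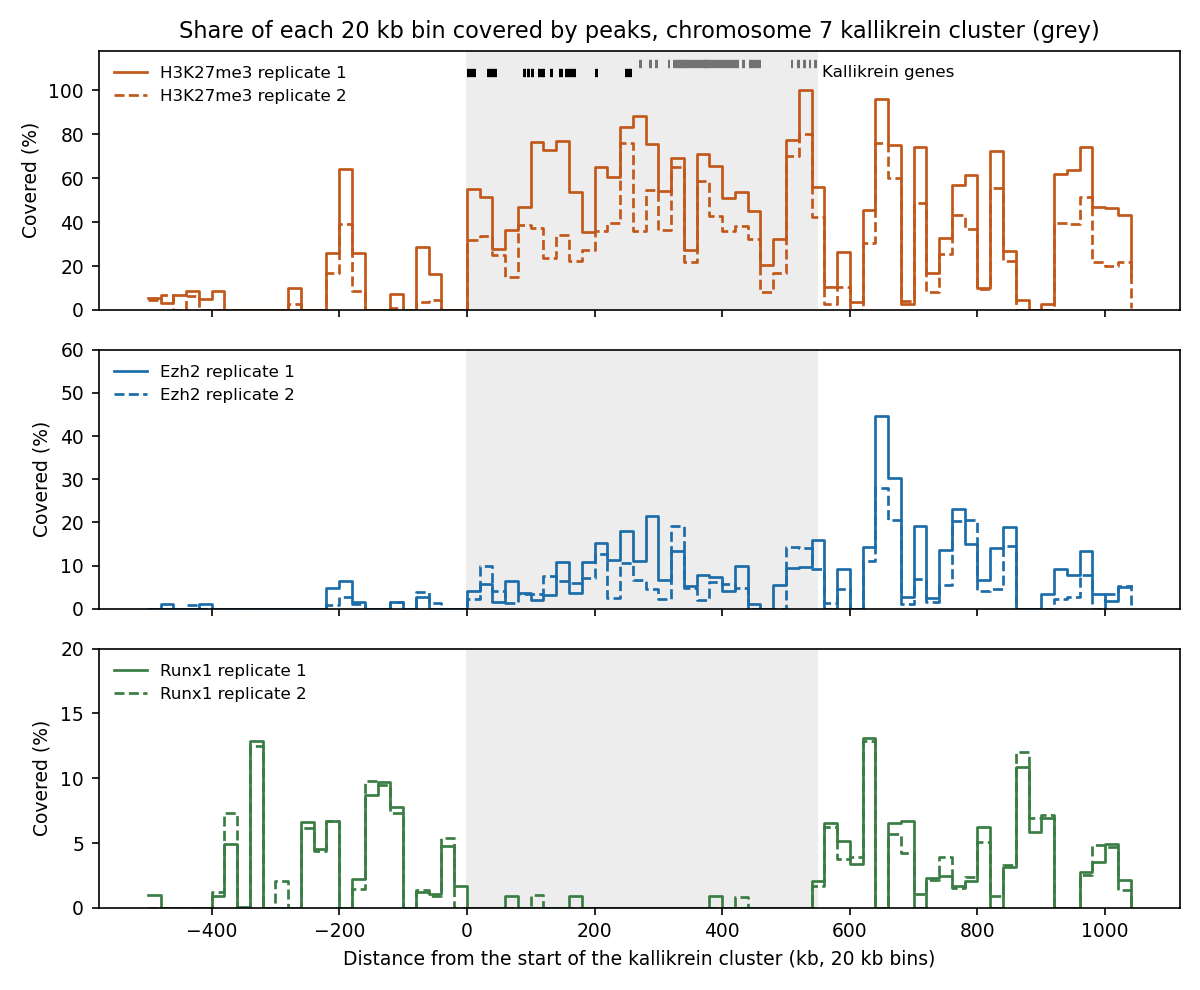
Share of each 20 kb bin covered by peaks (vertical axis, %) against distance from the start of the kallikrein cluster (horizontal axis, kb), with solid lines for replicate 1, dashed lines for replicate 2, grey shading for the cluster and marks for the genes (black for Klk4 to Klk15, grey for the Klk1 family). Every one of the 28 bins that touch the cluster held H3K27me3 peaks in both replicates, with medians of 55.3% and 35.9%, while Runx1 was at 0 in 24 and 25 of them.

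Along the cluster the mark differed from bin to bin. The lowest 20 kb bin was covered for 20.5% in replicate 1 and 7.96% in replicate 2, and the highest for 100% and 79.9%. More than 50% was covered in 20 bins in replicate 1 and in 6 bins in replicate 2. The widest H3K27me3 peak of replicate 1 was 25189 bp long and ran over Klk1b3, Klk1b4 and Klk1b5, whereas the widest of replicate 2 was 6573 bp.

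Seen gene by gene, H3K27me3 peaks covered a median of 85.2% and 56.8% of the length of the cluster kallikreins. The median was 66.0% and 39.3% over all 66 proteases and 0% in both replicates over all protein-coding genes. Klk1b5 was covered for 100% and 93.2%, and Klk5 for 54.7% and 20.4%. The annotation gives Klk1b21 a length that takes in Klk1b26 and Klk1b27, so its values overlap theirs.

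The Klk4 to Klk15 genes include enzymes of the skin, the enamel and the brain. All 12 were called for H3K27me3, with mean folds of 2.09 (Klk13) to 2.51 (Klk14). The strongest H3K27me3 peaks were the same for Klk11 and Klk12, for Klk8 and Klk9, and for Klk5 and Klk6. The 12 calls are therefore not all separate observations. Ezh2 was called at 7 of the 12 (58.3%, with 18.4% of all genes), namely Klk4, Klk5, Klk6, Klk7, Klk8, Klk9 and Klk15. None reached q of at most 0.01 for Ezh2 in both replicates.

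Klk7, the chymotrypsin-like enzyme of skin shedding (chr7:43811294-43816387), had Ezh2 folds of 3.45 in replicate 1 and 2.75 in replicate 2. The summits lay 166 and 120 bp from the start site. Its H3K27me3 folds were 2.37 and 2.40. Klk5, the trypsin-like enzyme of the same process, had Ezh2 folds of 2.61 and 2.13, but its replicate peaks did not overlap. Klk6, which is abundant in the central nervous system, had Ezh2 folds of 3.12 and 2.73 with summits 141 and 79 bp from a start site. Klk4, which clears enamel proteins in growing teeth, had 3.89 and 2.42, with q-values of 2.39e-05 and 0.201. At Klk4 the first replicate carried most of the signal.

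Klk8, the neuropsin of the brain and skin, shared its Ezh2 peaks with the neighbouring Klk9. The folds were 1.83 and 1.95, the lowest mean among the called proteases, with q-values of 0.602 and 0.723. These 2 calls rest on peaks that do not overlap between replicates. H3K27me3 at the same ends had folds of 2.51 and 2.36.

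Promoter sequences from RefSeq, covering 250 bases before and 50 after the start site on GRCm38.p6, were matched for 56 of the 66 genes. Capitals mark CG dinucleotides in the sequences below, all on the plus strand. They are shown because Klk8 has a CG-rich promoter in a cluster where most are CG-poor, and the promoters of Klk7, Klk1b5 and Prss35 were touched by peaks of both Ezh2 replicates and both H3K27me3 replicates. The windows are chr7:43811044-43811343 for Klk7, chr7:43797327-43797626 for Klk8, chr7:44216224-44216523 for Klk1b5 and chr9:86743383-86743682 for Prss35.
Klk7: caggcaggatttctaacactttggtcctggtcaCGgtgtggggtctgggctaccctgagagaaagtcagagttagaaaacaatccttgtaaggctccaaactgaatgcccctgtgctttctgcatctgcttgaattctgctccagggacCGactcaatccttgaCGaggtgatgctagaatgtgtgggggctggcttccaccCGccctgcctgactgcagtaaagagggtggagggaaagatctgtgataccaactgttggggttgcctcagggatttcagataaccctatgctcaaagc
Klk8: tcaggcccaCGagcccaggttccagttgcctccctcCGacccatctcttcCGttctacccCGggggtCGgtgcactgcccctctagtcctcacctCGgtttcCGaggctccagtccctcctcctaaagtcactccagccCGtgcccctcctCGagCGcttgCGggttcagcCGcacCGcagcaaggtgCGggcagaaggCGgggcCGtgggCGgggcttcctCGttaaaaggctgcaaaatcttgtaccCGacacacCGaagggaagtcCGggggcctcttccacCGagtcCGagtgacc
Klk1b5: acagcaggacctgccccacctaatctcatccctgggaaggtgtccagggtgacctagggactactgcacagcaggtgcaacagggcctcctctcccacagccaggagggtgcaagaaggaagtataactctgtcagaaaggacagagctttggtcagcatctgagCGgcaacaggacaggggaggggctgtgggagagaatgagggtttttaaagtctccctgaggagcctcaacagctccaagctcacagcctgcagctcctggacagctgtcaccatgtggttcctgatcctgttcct
Prss35: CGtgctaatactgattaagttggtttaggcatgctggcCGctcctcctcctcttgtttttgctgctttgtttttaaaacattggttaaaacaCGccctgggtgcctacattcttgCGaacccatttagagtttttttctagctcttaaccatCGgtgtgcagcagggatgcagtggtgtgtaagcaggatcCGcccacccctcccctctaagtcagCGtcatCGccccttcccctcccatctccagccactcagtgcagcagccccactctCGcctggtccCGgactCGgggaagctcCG

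The promoter of Klk8 held 23 CG dinucleotides, and those of Klk7 and Klk1b5 held 4 and 1. Among the 7 promoters listed for Prss23 the count ran from 4 to 41. With the count averaged over the promoters of each gene, Klk8 was highest, and the median was 3.0 per 300 bases over the 56 proteases and 13.0 over all protein-coding genes with a promoter. Within the group the median was 4.0 for Klk4 to Klk15, 1.5 for the Klk1 family and 5.0 for the Prss genes. An average of more than 10 CG dinucleotides was found for 11 of the 56 proteases (19.6%) and of 56.3% of all genes. The median was 4.5 among proteases called for Ezh2 and 3.0 among those not called. Over all genes it was 13.0 for those called for Ezh2, 9.0 for H3K27me3 and 21.0 for Runx1.

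H3K27me3 peaks of both replicates touched the 300-base promoter of 36 of the 56 proteases, among them 11 of 12 Klk4 to Klk15 genes and 13 of 14 genes of the Klk1 family. Ezh2 peaks of both replicates touched it at 8, namely Klk1, Klk1b5, Klk1b26, Klk5, Klk6, Klk7, Prss34 and Prss35. At Klk8 the peak of replicate 1 covered 198 of the 300 bases and that of replicate 2 covered 0. No promoter was touched by Runx1 peaks of both replicates. The share of all genes whose 300-base promoter was touched was not counted, so these counts have no background beside them.

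The RUNX core motif TGTGGT, or ACCACA on the other strand, was present in the promoter of 18 of the 56 proteases (32.1%) and of 17.2% of all genes. It was in 9 of 14 promoters of the Klk1 family and in 0 of 12 of the Klk4 to Klk15 genes. In the Klk1 family the copies of 1 ancestral gene share such letters, and a match of 6 bases is no binding site. The sequence of Klk1b5 above holds a single match, near the end of the window. It lies after the start site and overlaps an ATG triplet, so it is not an upstream site. The motif counts take in bases on both sides of the start site and are not counts of upstream sites. Where the match lies in the other promoters, and whether the counts depend on where each window ends, was not tested.

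The Klk1 family comprises Klk1, the tissue kallikrein that frees kinins from kininogen, and 13 close copies named Klk1b, which in the mouse are known mainly from the salivary gland. All 14 were called for H3K27me3, with mean folds of 2.19 (Klk1b24) to 2.56 (Klk1b27). Ezh2 was called at 7 (50.0%, with 18.4% of all genes), namely Klk1, Klk1b1, Klk1b3, Klk1b5, Klk1b9, Klk1b22 and Klk1b26.

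Klk1 itself (chr7:44225360-44229622) had H3K27me3 folds of 2.62 and 2.44, with q-values of 0.00364 and 0.0501. Its Ezh2 folds were 2.71 and 2.25, from strongest peaks that did not overlap each other. Klk1b5 (chr7:44216474-44220703) had the highest Ezh2 mean of the cluster, with folds of 3.73 and 2.93, q-values of 1.71e-05 and 0.00185, and summits 121 and 30 bp from the start site. Klk1b1 had 3.23 and 3.32 at the far end of the gene, where the strongest peaks of the replicates did not overlap each other. Both genes were thus called at the stricter q, but at different ends of the gene.

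Klk1b26, an enzyme described as cutting prorenin, had Ezh2 folds of 2.59 and 3.65, from strongest peaks that did not overlap each other. Klk1b3, the gamma subunit of the 7S nerve growth factor complex, had 2.33 and 2.44, while Klk1b4, its alpha subunit, was not called for Ezh2. Klk1b9, an enzyme that binds epidermal growth factor, had 2.34 and 2.36, with replicate peaks that did not overlap. The mark was called at each of the 3, with mean folds of 2.35, 2.37 and 2.42 at Klk1b26, Klk1b3 and Klk1b9, and at Klk1b4 with 2.37.

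The copies are alike in sequence, which limits how finely a peak can be given to 1 of them. Over 91 pairs of Klk1 family promoters the median identity was 75.9% (40.9% to 90.4%), and 29 pairs were over 80%. Among the 66 pairs of Klk4 to Klk15 promoters it was 49.4% (42.2% to 54.6%). The sources used here do not state how reads that match several places were treated. The motif TTTAAA, its own reverse complement, was in the promoter of 13 of 14 Klk1 family genes, 0 of 12 Klk4 to Klk15 genes and 13.8% of all genes. Capitals mark it in the stretches below, 3 from genes called for Ezh2 (Klk1b5, Klk1b9, Klk1b22) and 3 from genes that were not (Klk1b4, Klk1b24, Klk1b8), shown to let the likeness of the copies be seen. They lie at chr7:44216422-44216481, chr7:43976018-43976077, chr7:44112623-44112682, chr7:44207375-44207434, chr7:44188195-44188254 and chr7:43950612-43950671 on the plus strand (GRCm38.p6).
Klk1b5: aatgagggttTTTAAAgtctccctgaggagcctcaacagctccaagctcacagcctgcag
Klk1b9: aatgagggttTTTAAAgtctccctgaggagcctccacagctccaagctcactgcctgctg
Klk1b22: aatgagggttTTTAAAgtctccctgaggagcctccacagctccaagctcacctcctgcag
Klk1b4: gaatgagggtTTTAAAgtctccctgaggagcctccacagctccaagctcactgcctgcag
Klk1b24: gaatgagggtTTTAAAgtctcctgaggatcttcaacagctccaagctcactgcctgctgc
Klk1b8: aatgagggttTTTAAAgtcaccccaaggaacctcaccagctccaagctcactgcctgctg

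The Prss genes were more mixed than the kallikreins. Of 39, 23 were called for H3K27me3 (59.0%, with 30.6% of all genes), 13 for Ezh2 (33.3%, with 18.4%) and 7 for Runx1 (17.9%, with 45.3%). No antibody was called at 10 (25.6%), near the 28.7% of all genes. In all, 12 had both Ezh2 and H3K27me3 and 11 had H3K27me3 without Ezh2, where all genes had 16.3% and 14.2%. The mark covered a median of 29.8% and 16.7% of the length of a Prss gene.

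**Figure D4:**
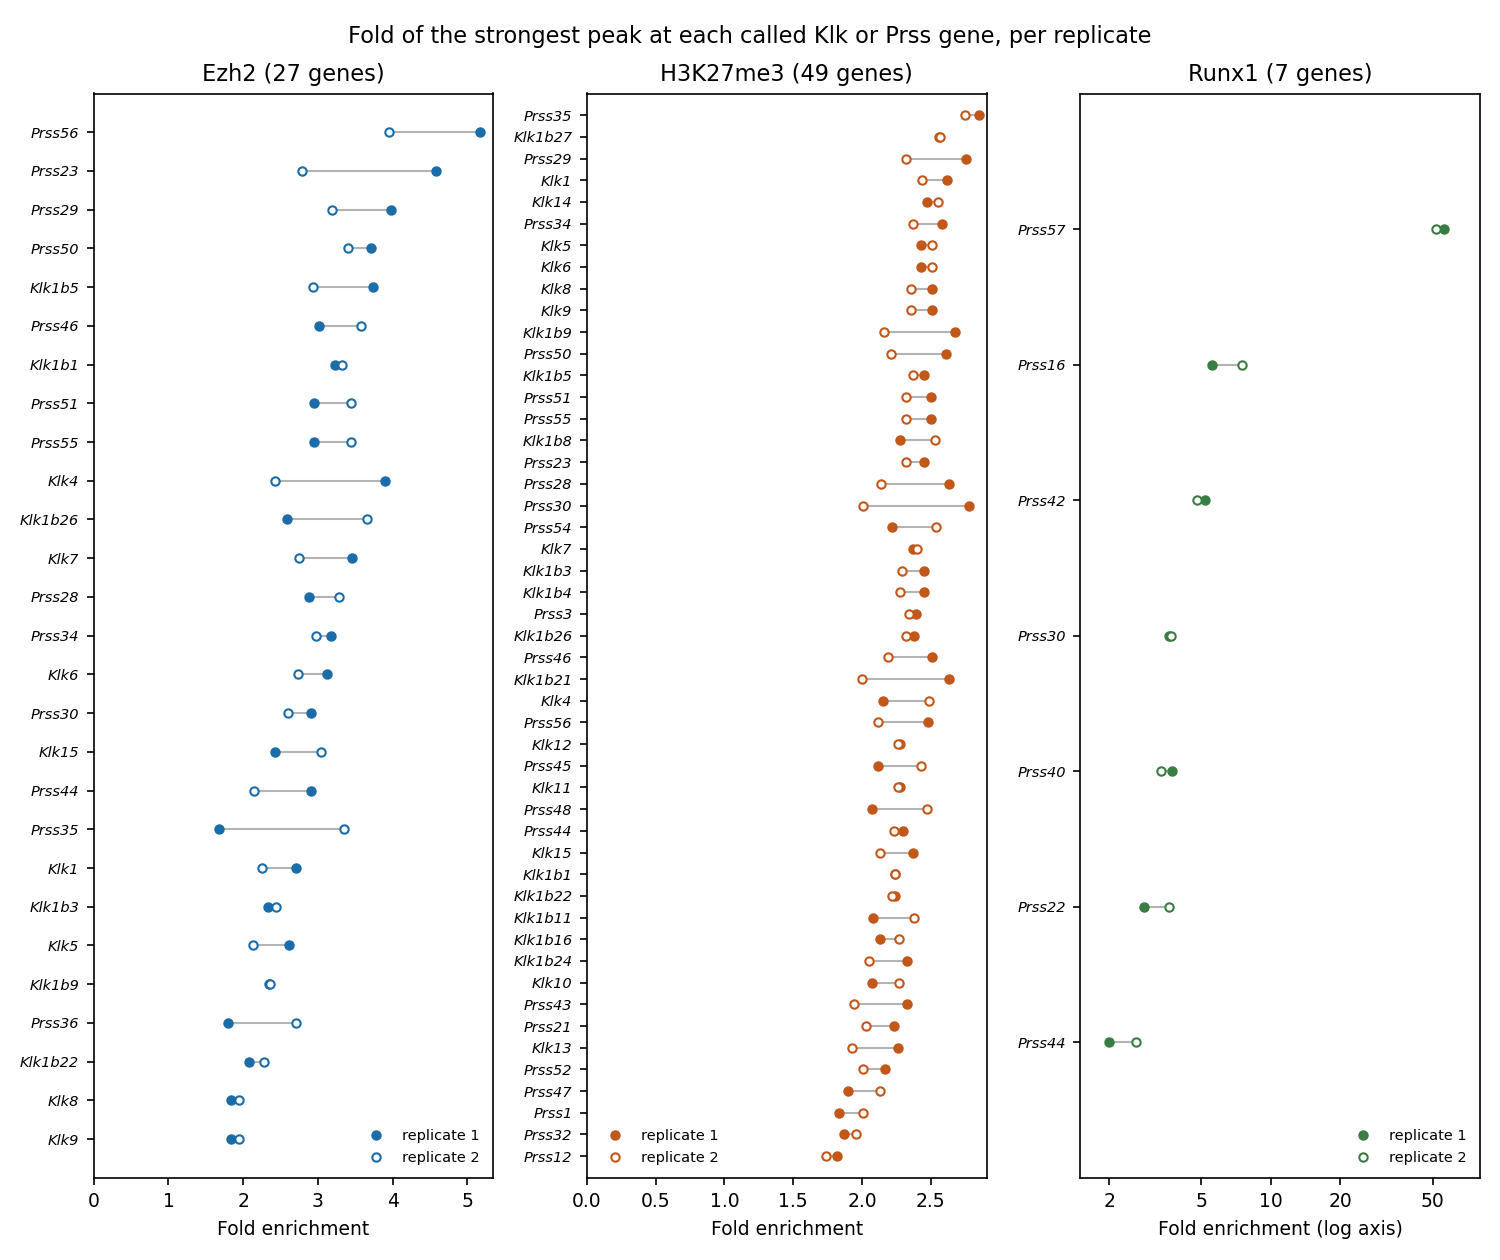
Fold enrichment of the strongest peak (horizontal axis, the authors' value) at each called gene, with filled points for replicate 1, open points for replicate 2 and genes ordered by the mean, in panels for Ezh2, H3K27me3 and Runx1 (the last on a log axis). Prss56 leads for Ezh2 with 5.17 and 3.95, Prss35 for H3K27me3 with 2.85 and 2.75, and Prss57 for Runx1 with 56.2 and 51.8.

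Prss56, a protease of the retina that is needed for normal eye size (chr1:87183102-87188405), had the highest Ezh2 fold, 5.17 in replicate 1 and 3.95 in replicate 2 (4.56 ± 0.863, SD, n = 2). The q-values were 2.81e-17 and 2.13e-09, and no other protease was called for Ezh2 at q of at most 1e-05. The summits lay 3711 and 3713 bp from the start site and 1380 and 1378 bp from the other end of the gene. They were thus outside the 1 kb window, which only the edge of the peaks reached. With windows of 0.5 kb the mean Ezh2 fold was 3.18. H3K27me3 had folds of 2.48 and 2.12 and covered 82.0% and 73.5% of the gene.

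Prss23, a secreted protease (chr7:89507783-89527187), had Ezh2 folds of 4.58 and 2.79 beside its start. Its q-values were 2.62e-07 and 0.0564, so the second replicate was the weaker, and the strongest peaks did not overlap each other. Prss35, a protease-like protein known from the ovary (chr9:86743240-86758443), had the highest H3K27me3 fold, 2.85 and 2.75 (2.80 ± 0.0728, SD, n = 2), with q-values of 0.000669 and 0.00775. Its Ezh2 folds were 1.68 and 3.35, far apart. Prss12, the neurotrypsin of synapses, had the lowest H3K27me3 folds of the called proteases, 1.82 and 1.74, with q-values of 0.214 and 0.531.

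Prss28 and Prss29, the implantation serine proteinases of the uterus, lay beside Prss34, a tryptase of mast cells and basophils, in 24291 bp of chr17:25298394-25322684. Ezh2 and H3K27me3 were called at each of the 3. H3K27me3 covered 100% of each gene in both replicates, and 81.8% and 77.2% of the block. Ezh2 covered 31.6% and 23.1% of the block, where all chromosomes together had 2.28% and 2.01%. Prss29 had Ezh2 folds of 3.98 and 3.19, Prss28 had 2.88 and 3.28, and Prss34 had 3.17 and 2.97. At Prss28 and Prss29 the strongest peaks of the replicates did not overlap each other, though other pairs of peaks did. With overlapping peaks required, the mean fold at Prss28 was 2.58 instead of 3.08, and at Prss29 it stayed at 3.59.

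This block also held a Runx1 region in both lists at chr17:25316490-25316993, between Prss28 and Prss29, with folds of 20.0 and 27.6. It was 1661 bp from Prss29 and so outside the windows. H3K27me3 peaks covered 24.2% and 18.1% of the region, and Ezh2 peaks covered none of it.

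**Figure D5:**
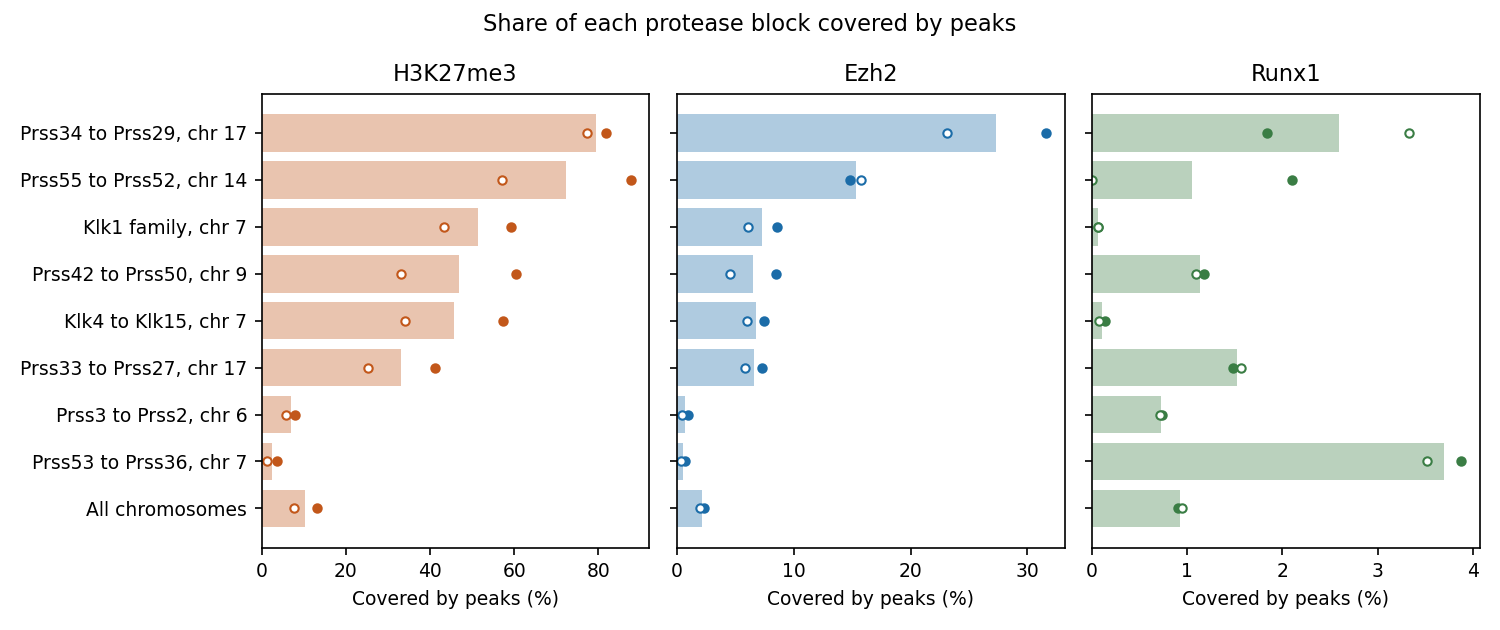
Share of each protease block covered by peaks (horizontal axis, %), with bars for the mean of both replicates, filled points for replicate 1 and open points for replicate 2, and all chromosomes in the bottom row. H3K27me3 covered 81.8% and 77.2% of the Prss34 to Prss29 block and 13.1% and 7.63% of all chromosomes, and the Prss3 to Prss2 and Prss53 to Prss36 blocks lay below all chromosomes.

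The testis proteases of chromosome 9 (chr9:110797248-110864629) comprised Prss42, Prss43, Prss44, Prss45, Prss46 and Prss50. H3K27me3 was called at 5 of the 6, all but Prss42, and covered 60.5% and 33.0% of the block. Ezh2 was called at Prss44, Prss46 and Prss50. Prss50 had Ezh2 folds of 3.71 and 3.40 with q-values of 6.50e-06 and 0.000368. These strongest peaks did not overlap each other, and with overlapping peaks required the mean fold of Prss50 was 3.02 instead of 3.56. Its Ezh2 peaks also lay within 1 kb of Tmie, the next gene. Prss46 had 3.01 and 3.58, but its replicate peaks did not overlap.

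On chromosome 14, Prss55, a protease needed for sperm function, and its neighbours Prss51 and Prss52 (chr14:64075435-64113751) were all called for H3K27me3. The mark covered 87.7% and 57.0% of that block. Prss55 and Prss51 share the strongest Ezh2 peaks near their facing ends, with folds of 2.95 in replicate 1, inside Prss55, and 3.44 in replicate 2, inside Prss51. Those 2 peaks do not overlap each other, though other peaks in the windows do. Their 2 calls are therefore not separate observations.

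Other blocks carried less of the mark than those above. The 7 genes from Prss33 to Prss27 on chromosome 17 (chr17:23833338-24045949) had 3 calls for H3K27me3 (42.9%), 1 for Ezh2 (14.3%) and 2 for Runx1 (28.6%). Among all protein-coding genes these shares were 30.6%, 18.4% and 45.3%. The mark covered 41.1% and 25.2% of this block, above the 13.1% and 7.63% of all chromosomes. The block of the trypsins Prss1, Prss2 and Prss3 on chromosome 6, made as trypsinogens by the pancreas, had 7.93% and 5.81%, and was called for the mark at Prss1 and Prss3 with folds of 1.83 and 2.01 at Prss1 and 2.39 and 2.34 at Prss3. The block of Prss53, Prss8 and Prss36 on chromosome 7, where Prss8 encodes the prostasin that activates the epithelial sodium channel, had 3.64% and 1.37%. No gene of that block was called for the mark, and Prss36 had Ezh2 folds of 1.80 and 2.70.

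Runx1 was called at Prss57, Prss16, Prss42, Prss30, Prss40, Prss22 and Prss44. Prss57, the neutrophil serine protease NSP4 kept in granules (chr10:79781474-79794684), had the highest folds, 56.2 in replicate 1 and 51.8 in replicate 2 (54.0 ± 3.13, SD, n = 2). The −log10 q was 2190 and 1820. That peak lay outside the gene, with summits 1157 and 1177 bp from its end, so the edge of the peak reached into the 1 kb window and its summit did not. It also lay within 1 kb of an end of Fstl3, so the call is shared with that gene. A separate Runx1 region, inside Prss57 (chr10:79788608-79789194), had folds of 5.98 and 6.77. No Ezh2 or H3K27me3 peak fell in Prss57 in any list.

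Prss16, the thymus-specific serine protease of cortical epithelium (chr13:22002176-22009741), had Runx1 folds of 5.57 and 7.48 at its lower end. A stronger region within the gene (chr13:22005605-22006615) had 13.2 and 14.9. No Ezh2 or H3K27me3 peak fell in Prss16 either. Prss42, a protease of male germ cells, had 5.21 and 4.82.

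The other 4 Runx1 calls were lower. Prss40, also known from sperm, had 3.73 and 3.34, shared with its neighbour Cfc1. Prss30 had 3.64 and 3.71, and Prss22, a tryptase of airway epithelium, had 2.84 and 3.64. Prss44 had 1.99 and 2.61, with q-values of 0.986 and 0.0423. The median of the mean folds was 3.68 over the 7 proteases and 7.50 over all genes called for Runx1.

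For Ezh2 the same median was 3.07 over the 27 called proteases and 2.96 over all called genes, and for H3K27me3 it was 2.35 over 49 proteases and 2.29 over all. Of the 27 Ezh2 calls, 21 had at least 1 pair of peaks in the window that overlapped between replicates (77.8%, with 88.6% over all genes called for Ezh2). With overlapping peaks required, 31.8% of the proteases and 16.3% of all genes were called for Ezh2. All 49 H3K27me3 calls and all 7 Runx1 calls overlapped, where 30.0% and 45.1% of all genes were so called for these antibodies. The 6 Ezh2 calls without overlap were Klk5, Klk8, Klk9, Klk1b3, Klk1b9 and Prss46. In some of the calls with overlap, the strongest peaks of the replicates still did not overlap each other. These were Klk1, Klk15, Klk1b1, Klk1b26, Prss23, Prss28, Prss29, Prss44, Prss50, Prss51 and Prss55.

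Where the strand was known, the strongest Ezh2 peak lay at the start of 12 genes and at the end of 12. For H3K27me3 it was counted at the start of 20 and at the end of 23. Some H3K27me3 peaks ran over both ends of a gene, as at Prss34, Prss28 and Prss29. Such ties were counted at the end with the lower coordinate, so the H3K27me3 split does not locate the mark at either end. With windows at start sites alone, 17 of 56 proteases were called for Ezh2 (30.4%, with 15.2% of all genes), 41 for H3K27me3 (73.2%, with 26.0%) and 2 for Runx1 (3.57%, with 46.1%), which were Prss30 and Prss42.

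The partners of these enzymes were looked at through lists chosen with results of these data known, and the genes named from them were picked after their values were seen. Of 16 substrates and receptors of kallikreins and trypsins, 8 were called for H3K27me3 (50.0%), 3 for Ezh2 (18.8%) and 3 for Runx1 (18.8%). Kng1, the kininogen from which kallikreins free kinins, had Ezh2 folds of 3.66 and 3.01 and H3K27me3 folds of 2.47 and 2.13. Enam, an enamel protein and substrate of Klk4, had Ezh2 folds of 3.23 and 3.39. The 3 Runx1 calls were the protease-activated receptors F2r, with 21.4 and 22.2, F2rl2, with 17.5 and 27.7, and F2rl3, with 6.00 and 8.42. F2rl1, the trypsin receptor of the same family, was called for H3K27me3 with 2.12 and 2.39 and not for Runx1.

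Of 22 inhibitors of kallikreins and trypsins, 11 were called for H3K27me3 (50.0%), 4 for Ezh2 (18.2%) and 3 for Runx1 (13.6%). Spink5, the skin inhibitor of Klk5 and Klk7, had H3K27me3 folds of 2.06 and 2.01. Among all protein-coding genes the shares were 30.6% for H3K27me3, 18.4% for Ezh2 and 45.3% for Runx1.

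Over the whole gene with 1 kb either side, 38 of the 66 proteases had peaks of both Ezh2 replicates (57.6%, with 31.5% of all genes), 56 of both H3K27me3 replicates (84.8%, with 39.2%) and 11 of both Runx1 replicates (16.7%, with 59.9%). With windows of 5 kb, 45 were called for Ezh2 (68.2%, with 32.4% of all genes), 57 for H3K27me3 (86.4%, with 44.4%) and 19 for Runx1 (28.8%, with 57.4%).

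As a check of the cell label, 7 of 8 progenitor genes were called for Runx1 (87.5%, with 45.3% of all genes). Of the same 8 genes, 0 were called for Ezh2 (with 18.4% of all genes) and 0 for H3K27me3 (with 30.6%). Runx1 was also called at 3 of 5 genes of the mast cell list, 3 of 5 of the neutrophil granule list and 1 of 5 of the pancreatic acinar list. The mast cell calls include Kit, which is also in the progenitor list. The neutrophil calls include Prss57, a member of the family described here. The lists of 5 genes are therefore no separate check of the cell label. H3K27me3 was called at 1 gene of the mast cell list (20.0%), 2 of the neutrophil list (40.0%) and 3 of the acinar list (60.0%), with 30.6% of all genes. Ezh2 was called at 1 gene of the mast cell list (20.0%, with 18.4% of all genes). Among the progenitor genes, Kit, the receptor of stem cell factor, had Runx1 folds of 4.11 and 3.94, and Spi1, the myeloid and lymphoid factor PU.1, had 33.1 and 33.2. Lmo2 was not called. The sources used here state no read totals, so depth is unknown and an absent peak is not an absent protein or mark.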

How the data were processed

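The 6 deposited peak lists, 1 for each library with an antibody, were used, and the 2 inputs were not analysed here. Per the submitters' processing notes the build was mm10 and the tools were MACS2 2.0.10, Bowtie2 2.2.1, SAMtools and Picard, without roles or parameters. Each list gives, as deposited, a fold enrichment (a linear ratio) and p- and q-values as −log10. The deposited score was not used. The weakest peaks had p between 0.0493 and 0.0499. Lists held 178354 and 159007 Ezh2, 220455 and 178423 H3K27me3, and 64059 and 66153 Runx1 peaks. Library depth is unknown.

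Genes came from RefSeq on GRCm38.p6, which shares chromosome coordinates with mm10. A call needed a peak of both replicates, overlapping the same 1 kb window by at least 1 bp. Coverage is the share of bases under merged peaks. Strands and start sites came from the RefSeq promoter table. Promoter identity came from global alignments. Python 3.11.15, pandas 2.3.3 and Biopython 1.88 were used, and the counting steps were tested on simulated data. The members and all lists were chosen with earlier results of these data known. Values in full were planned for up to 8 called members of highest mean fold per antibody, members called for at least 2 antibodies and members called at q of at most 0.01. Cluster kallikreins were to be given as counts, and neighbours only where they share a peak. Other genes with values were chosen after their values were seen. No test was made, since the genes were chosen with results known.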

Additional observations from a re-analysis of the deposited data

How the results depend on the processing

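Keeping peaks of q at most 0.01, q at most 1e-05 or the 10000 strongest per list left 8, 1 and 3 proteases called for Ezh2 (27 with all peaks) and 1, 0 and 2 for H3K27me3 (49 with all peaks). For Runx1, 3 and 1 were left at q of at most 1e-05 and with the 10000 strongest (7 with all peaks). These settings keep fewer peaks by construction. Windows of 5 kb gave 45 Ezh2 and 19 Runx1 calls (68.2% and 28.8% of the proteases, with 32.4% and 57.4% of all genes), whole gene spans gave 11 for Runx1, and start sites alone gave 17 for Ezh2 and 2 for Runx1. With 1 replicate left out, counts ran from 32 to 39 for Ezh2, 50 to 51 for H3K27me3 and 8 to 9 for Runx1. As shares of the proteases these were 48.5% to 59.1%, 75.8% to 77.3% and 12.1% to 13.6%. The same rule called 22.6% to 27.3% of all genes for Ezh2, 32.6% to 38.6% for H3K27me3 and 48.0% to 48.1% for Runx1.

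Mean coverage of the kallikrein cluster was 7.06% for Ezh2, 48.5% for H3K27me3 and 0.0816% for Runx1. At q of at most 0.01, at 1e-05, with the 10000 strongest peaks and over bases in both lists it was 1.31%, 0.0859%, 0.407% and 1.86% for Ezh2, 3.75%, 0%, 1.15% and 33.6% for H3K27me3, and 0% each time for Runx1. Coverage of chromosome 7 under these peak filters was not counted, so the filtered shares have no background beside them. With limits extended by 10 kb mean coverage of the cluster was 0.109% for Runx1, and over gene bodies 0.136%. With 1 replicate left out it ran from 6.11% to 8.02% for Ezh2, 38.5% to 58.6% for H3K27me3 and 0.0671% to 0.0962% for Runx1. Of 539 folds of 33 named genes that stayed called under the alternatives, 475 stayed within 1 SD and 64 moved further, and the cause was not tested. The SD is that of 2 replicates, so leaving 1 out keeps a fold within it as long as the same peaks are used. Under the stricter peak filters no fold moved, but genes that lost the call were not counted. The 475 are therefore no measure of stability. No paired analysis was possible because the results come from no test. Depth is unknown, so a weak and an absent peak cannot be told apart.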

Other observations

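Other serine proteases, in lists also chosen with results of these data known, gave these counts. Of 22 granule serine proteases of blood cells, 12 were called for H3K27me3, 7 for Ezh2 and 4 for Runx1. The 4 Runx1 calls were Gzmb, a granzyme of killer lymphocytes, with folds of 19.0 and 28.1, Mcpt8, a basophil protease, with 12.6 and 15.7, Ctsg, the neutrophil cathepsin G, with 3.15 and 4.80, and Gzmm, with 2.74 and 2.21. None of these 4 was called for H3K27me3. Elane and Prtn3, the neutrophil elastase and proteinase 3, were called for H3K27me3 with 2.47 and 2.23 and with 2.06 and 1.84, and not for Runx1. Gzma, a lymphocyte granzyme, had Ezh2 folds of 4.10 and 3.22.

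Of 20 membrane-anchored serine proteases, 11 were called for H3K27me3, 6 for Ezh2 and 2 for Runx1. St14, the matriptase of epithelia, had the highest Ezh2 folds of that list, 4.49 and 3.66. Of 20 coagulation and plasma serine proteases, 10 were called for H3K27me3, 4 for Ezh2 and 5 for Runx1, and of 9 pancreatic digestive proteases 4 were called for H3K27me3, 3 for Ezh2 and 1 for Runx1. Among all protein-coding genes the shares were 30.6% for H3K27me3, 18.4% for Ezh2 and 45.3% for Runx1. Genes named here were chosen after their values were seen.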
